A study of Mus musculus with 45 samples.

Results

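Forelimb buds of CD1 mouse embryos at gestation day 13, a stage at which the limb skeleton is still largely cartilage, were kept in culture with bisphenol A (BPA), the plastics monomer known for weak estrogenic activity, and polyadenylated RNA was sequenced. The comparison described here sets the 5 libraries of limbs cultured for 24 h at 50 µM BPA against the 5 libraries cultured for 24 h at 10 µM BPA, which are 10 of the 45 libraries of the series. It asks what the higher dose did beyond the lower one. The members were taken by their labels alone: raw read counts of the 10 libraries were joined by Ensembl gene ID over the 29408 genes that both deposited tables of 24 h list, with 30679 genes in the table of the higher dose and 30895 in the other. The 5 limb cultures with the solvent dimethyl sulfoxide (DMSO) alone for 24 h, called vehicle, stand beside them, and libraries of the same doses at 3 h and 48 h are used for the comparison over time.

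All groups shared the outbred stock, the embryonic stage, the medium with ascorbic acid and gentamycin, and the gas mixture rich in oxygen, and the labels name no engineered allele. Forelimbs were excised and pooled in glass bottles, with limbs of male and female embryos in the same culture, so a library may hold RNA of several embryos and holds all cell types of the limb. In such bulk tissue, fewer cells of a type and less RNA per cell cannot be told apart. Nothing in the labels ties a library to a litter or a day of culture. The p-values below therefore weigh a difference against the variation among these 5 libraries per group, part of which may be technical.

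In a limb bud of this age, chondrocytes build the cartilage model of each bone, and those at its centre enlarge, switch to collagen X and then give way to osteoblasts, which lay down mineralised matrix. Myoblasts that migrated in from the somites fuse into fibres and start to make the contractile proteins of the sarcomere. The integrated stress response is a different kind of programme, open to nearly every cell: kinases that sense amino acid shortage, unfolded protein or other strain slow translation, and the transcription factor ATF4 then turns on genes for amino acid uptake and synthesis and for tRNA charging.

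The libraries held 18321508 to 20993645 counts over genes at 50 µM, 17540925 to 26570582 at 10 µM and 17939692 to 24770274 in vehicle. Levels are given as CPM, each library's counts scaled to one common total after edgeR's TMM factors over the 15 libraries of 24 h, in the order of replicates 1 to 5. The limb mesenchyme markers Prrx1 (between 414 and 525 CPM), Twist1 (98.5 to 194 CPM) and Msx1 (46.6 to 80.1 CPM) were present in all 15, as the tissue label says. Some libraries stood apart in genes that the dose does not name. The 26 epidermis genes took 0.0158 to 0.162% of the counts at 10 µM and 0.0414 to 0.128% at 50 µM. Ddx3y, a gene of the Y chromosome, was at 77.9, 32.5, 61.1, 32.9 and 0.145 CPM at 10 µM and at 21.8, 30.3, 85.1, 71.2 and 77.2 CPM at 50 µM. Replicate 5 of 10 µM thus held almost none, although limbs of both sexes are said to share a culture, and the reason was not tested. Replicate 4 of 10 µM was high in genes of the hypoxia response and glycolysis. The number of calls without replicate 4 or replicate 5 of 10 µM is given below.

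Of 16798 genes tested with edgeR's quasi-likelihood test, 126 differed between the doses at a Benjamini-Hochberg adjusted p under 0.05, which is 0.75%. These genes are called here. At an unadjusted p under 0.05 there were 1737 (10.3%), and DESeq2 called 322 (2.04%). At 50 µM 41 were higher (0.244%) and 85 lower (0.506%), with median log2 fold changes of 0.50 and −0.61. The differences were moderate: 2 of the genes called higher and 14 of those called lower changed more than 2-fold. The ranges of CPM in the 2 groups did not overlap for 34 of the 41 and 81 of the 85 called genes, against 2.71% of all genes tested (1.06% higher and 1.65% lower). By role, the genes called lower held 14 of 31 sarcomere genes, 3 of 23 genes of hypertrophic cartilage, 3 of 24 osteoblast genes (the lists share 2 of these calls) and 4 of 30 mitosis genes, while those called higher held 6 of 30 genes of the integrated stress response and 4 of 17 amino acid transporters. The median over all genes tested was 0.01. The number of calls depended on single libraries. It was 62 without replicate 3 of 10 µM, 75 without replicate 2, 89 without replicate 5 and 103 without replicate 4 of that dose. Without replicates 2, 4 and 5 of 50 µM it was 72, 82 and 72. The number was higher, 131, without replicate 1 of 10 µM, and 137 and 172 without replicates 1 and 3 of 50 µM. Whichever library was left out, 58 of the 126 genes were called.

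**Figure D1:**
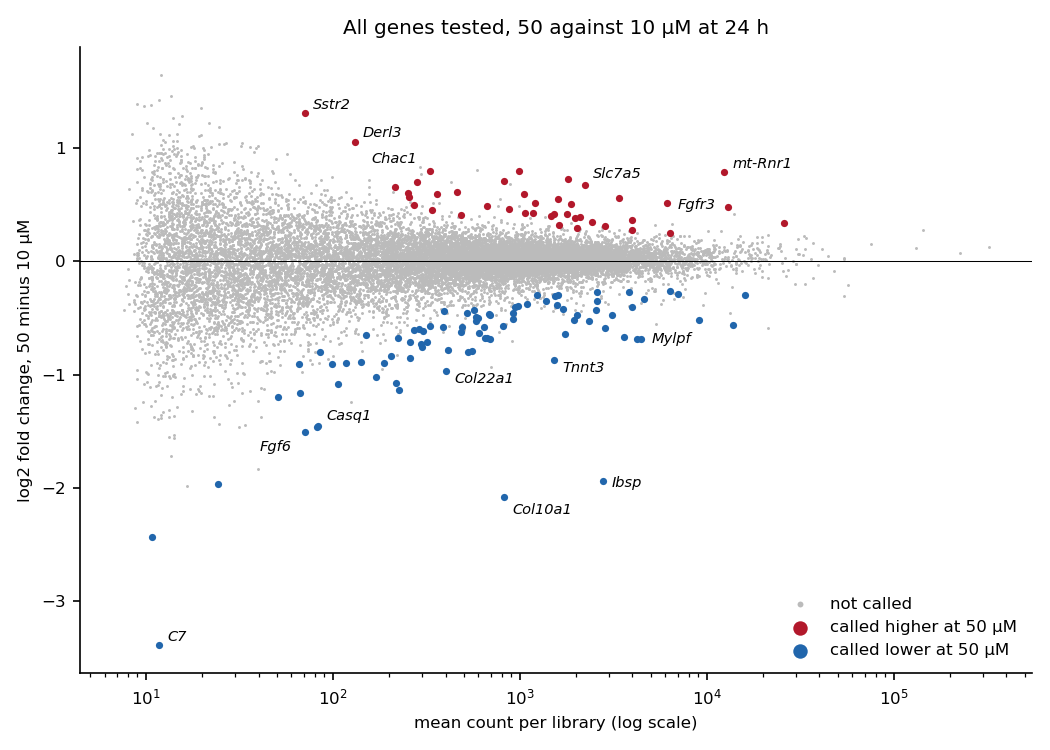
Each point is 1 of the 16798 genes tested, with its mean count per library on a log scale across and its log2 fold change, 50 minus 10 µM at 24 h, upwards. The 41 genes called higher are red and the 85 called lower are blue, and the largest changes among well counted genes are the falls of Col10a1 and Ibsp.

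Set against vehicle, the doses gave different numbers of calls. At 10 µM, edgeR called 0 of 17060 genes, with 786 at an unadjusted p under 0.05 (4.61%) and 16 calls by DESeq2 (0.0692%). At 50 µM it called 585 of 16841 genes (3.47%), 231 higher (1.37%) and 354 lower (2.1%), with 2652 at an unadjusted p under 0.05 (15.7%) and 933 calls by DESeq2 (5.53%). That number too depended on single libraries. It was 351, 345 and 365 without replicates 2, 4 and 5 of 50 µM, and 579 and 523 without replicates 1 and 3. Without replicates 3, 4 and 5 of vehicle it was 351, 366 and 362, and without replicates 1 and 2 of vehicle 661 and 488. In each of the 3 comparisons a fit with a replicate block called more genes, 10 µM against vehicle included. For 10 µM against vehicle that fit called 95 genes, so the 0 holds for the fit without a block. All counts of the fit with a block are given at the end, since no label pairs the replicate numbers. All 3 comparisons share libraries, and for several leading genes below the difference of each dose from vehicle is given beside the difference between doses.

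The largest falls among well counted genes were in the genes of hypertrophic cartilage and bone matrix. Col10a1, which encodes the collagen X of hypertrophic chondrocytes (ENSMUSG00000039462, chromosome 10, 34389981 to 34397085, plus strand, mm10), was at 95.1, 85.8, 56.7, 43.3 and 46.7 CPM at 10 µM and at 13.1, 22.6, 17.6, 12.5 and 11.3 CPM at 50 µM. In vehicle it was at 55.7, 97.01, 45.3, 32.1 and 29.7 CPM. All 5 libraries of 50 µM lay below every library of the other groups, while vehicle and 10 µM overlapped widely. The level was 4.23-fold lower at 50 than at 10 µM (log2 fold change −2.08 ± 0.23 SE, edgeR adjusted p = 0.000732). Against vehicle the log2 difference was 0.34 ± 0.30 at 10 µM (adjusted p = 0.9999) and −1.76 ± 0.29 at 50 µM (adjusted p = 0.00375).

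Ibsp, the bone sialoprotein of mineralising matrix (ENSMUSG00000029306, chromosome 5, 104299171 to 104311469, plus strand), was at 251, 269, 240.2, 171 and 143 CPM at 10 µM and at 54.9, 59.3, 81.1, 47.5 and 36.3 CPM at 50 µM. Again no library of 50 µM reached the lowest of 10 µM. The fall was 3.84-fold (log2 −1.94 ± 0.20 SE, edgeR adjusted p = 0.000354), the smallest adjusted p of the comparison, which it shares with Tubb6. Slc13a5, a citrate carrier of mineralising tissue, fell from 15.2 ± 2.38 to 6.88 ± 1.58 CPM (mean ± SD, n = 5 each; 2.19-fold, edgeR adjusted p = 0.002598). Ifitm5, a membrane protein made by osteoblasts, fell from 6.96 ± 1.53 to 3.27 ± 0.672 CPM (2.12-fold, edgeR adjusted p = 0.0148), and Sp7, the osteoblast transcription factor osterix, fell from 31.6 ± 1.98 to 23.5 ± 2.09 CPM (1.35-fold, edgeR adjusted p = 0.0205). The groups did not overlap for any of the 3. The first was called in 10 of 10 fits that left out 1 library, Ifitm5 in 6 of 10 and Sp7 in 5 of 10. In vehicle Sp7 was at 25.96 ± 3.12 CPM, between the 2 doses, and its range overlapped that of 50 µM. Its log2 difference from vehicle was 0.29 ± 0.09 at 10 µM (edgeR adjusted p = 0.9065) and −0.16 ± 0.10 at 50 µM (adjusted p = 0.492).

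Most other genes of both programmes did not pass the test. Of 23 genes tested in the hypertrophic cartilage list, 3 fell (Col10a1, Ibsp and Sp7) and none rose, with a median log2 fold change of −0.18. The osteoblast list shares Ibsp and Sp7 with it and gave 3 falls among 24 tested genes, with a median of −0.19. At an unadjusted p under 0.05 the first list had 11 genes, 10 of them lower, and the osteoblast list 9, 8 of them lower. The share over all genes tested was 10.3%. DESeq2 called 6 in the first list, all lower, and 7 in the osteoblast list, 6 of them lower. Runx2, the transcription factor upstream of both cell types, had a log2 difference of −0.33 ± 0.09 (edgeR adjusted p = 0.1004), and Alpl, the alkaline phosphatase of mineralisation, one of −0.32 ± 0.08 (adjusted p = 0.07496). The alkaline phosphatase levels of the 2 groups did not overlap, but neither gene passed the test. Col1a1, the main collagen of bone, was at 3003 ± 387 CPM at 10 µM and 2585 ± 223 CPM at 50 µM (adjusted p = 0.3802), and Spp1, osteopontin, was at 10.5 ± 2.87 and 9.17 ± 3.31 CPM (adjusted p = 0.855).

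The cartilage itself showed 1 call among 26 chondrocyte genes, with a median log2 fold change of 0.02. Cytl1, a secreted protein of chondrocytes, fell from 112 ± 5.23 to 78.1 ± 12.02 CPM (log2 −0.52 ± 0.09 SE, edgeR adjusted p = 0.00742). Replicate 4 of 10 µM held the highest Cytl1 level of that group, 121 CPM, and the call stood in all 10 fits that left out a library. Col2a1, the collagen of cartilage matrix, was at 6224, 6348, 6010, 6638 and 6055 CPM at 10 µM and at 6868, 7252, 6098, 6887 and 6659 CPM at 50 µM. The ranges overlapped, and the log2 difference of 0.11 ± 0.06 did not pass (edgeR adjusted p = 0.556). Sox9, the chondrocyte transcription factor, differed by 0.18 ± 0.07 (adjusted p = 0.327) and Acan, the proteoglycan aggrecan, by 0.12 ± 0.06 (adjusted p = 0.558). Ihh, the signal of prehypertrophic chondrocytes, differed by 0.08 ± 0.13 (adjusted p = 0.892) and Pth1r, the receptor of the opposing signal, by −0.06 ± 0.09 (adjusted p = 0.894).

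**Figure D2:**
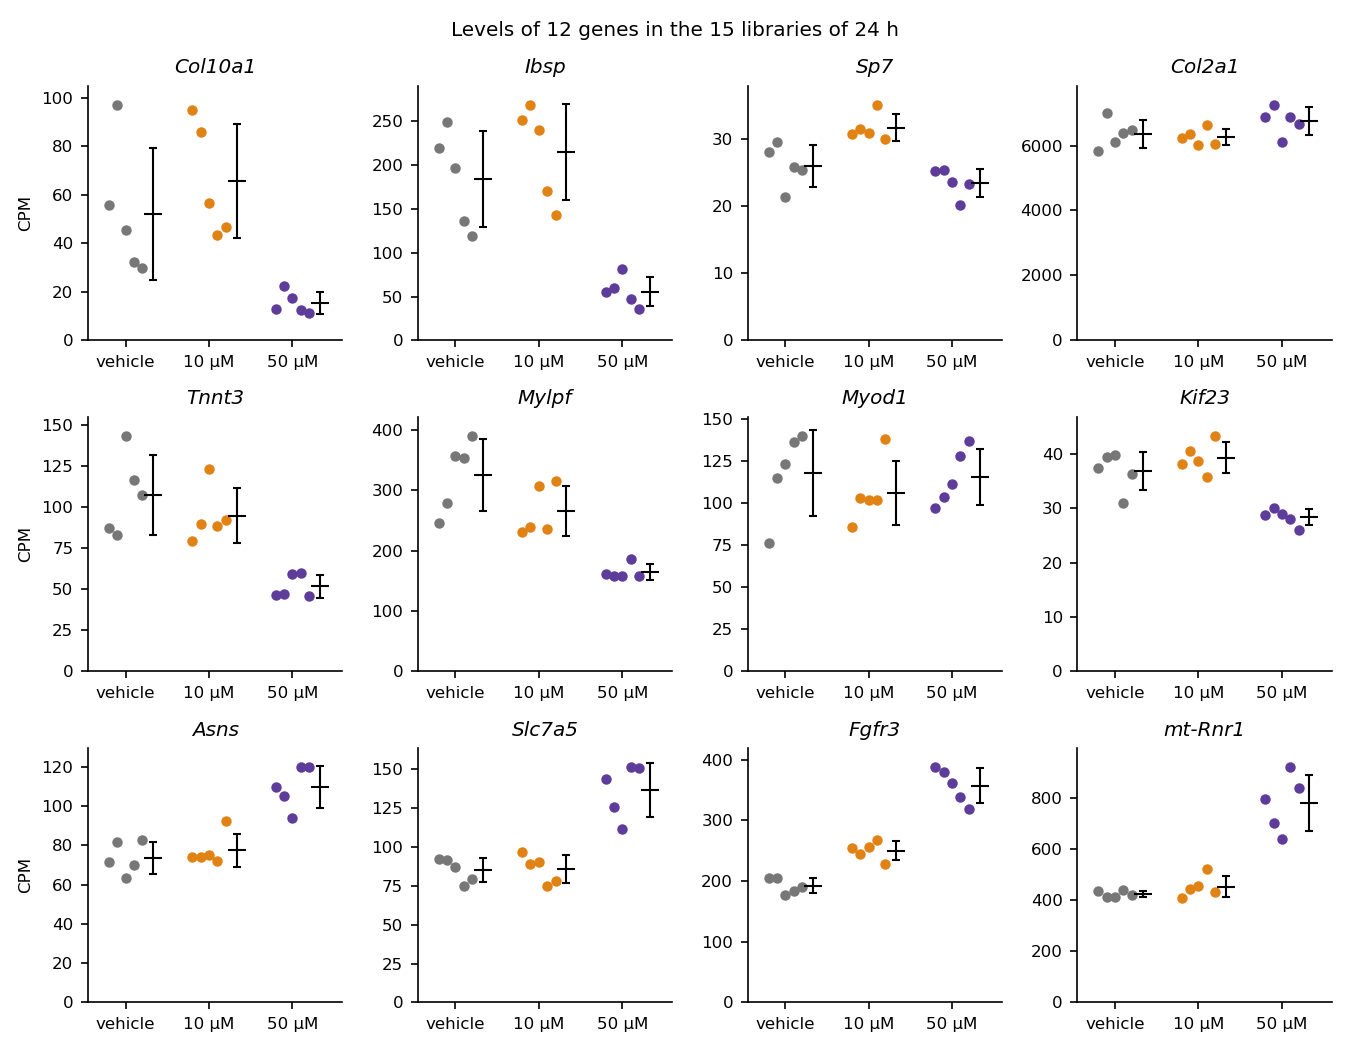
Points are the 5 libraries of vehicle (grey), 10 µM (orange) and 50 µM (purple) at 24 h, with CPM upwards on linear axes from 0, and bars give the mean ± SD beside each group. Col10a1, Ibsp, Sp7, Tnnt3, Mylpf and Kif23 are lower in every library of 50 µM than of 10 µM, Asns, Slc7a5, Fgfr3 and mt-Rnr1 are higher in every one, and the ranges of Col2a1 and Myod1 overlap.

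Contractile genes of skeletal muscle made up the largest group of falls among the lists read. Of 31 sarcomere genes tested, 14 fell and none rose, all 31 had a negative log2 fold change, and the median was −0.56; in the list of excitation-contraction coupling, 3 of 21 fell, with a median of −0.34. Tnnt3, the fast skeletal troponin T (chromosome 7, 142498836 to 142516009, plus strand), was at 79.2, 89.8, 123, 88.8 and 92.3 CPM at 10 µM and at 46.6, 46.9, 59.3, 60.1 and 45.9 CPM at 50 µM. Mylpf, the phosphorylatable fast myosin light chain, was at 231, 239, 307, 236 and 316 CPM at 10 µM and at 162, 159, 158, 187 and 158 CPM at 50 µM. In both genes every library of 50 µM was below every library of 10 µM. Tnnt3 was 1.83-fold lower (log2 −0.87 ± 0.11 SE, edgeR adjusted p = 0.00249) and Mylpf 1.61-fold lower (log2 −0.69 ± 0.09 SE, edgeR adjusted p = 0.00249).

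The other 12 sarcomere genes that fell were the troponins Tnnc1, Tnni2 and Tnnt1, the myosin light chains Myl1 and Myl4, the embryonic and neonatal myosin heavy chains Myh3 and Myh8, tropomyosin Tpm2, the M-band protein Myom2 and the Z-disc proteins Tcap, Ldb3 and Csrp3. Csrp3, the muscle LIM protein, changed most, 2.295-fold, from 3.49 ± 1.101 to 1.51 ± 0.152 CPM (edgeR adjusted p = 0.0306). At the other end Tnnt1, the slow troponin T, was 1.33-fold lower (adjusted p = 0.0313). Leaving out 1 library, Tnnc1, Tnni2, Myl4 and Myom2 were called in 10 of 10 fits, and the other 8 in 3 to 8 of 10. Acta1, the skeletal actin, was at 523 ± 76.7 CPM at 10 µM and 399.7 ± 39.7 CPM at 50 µM and missed the threshold (adjusted p = 0.07998). Among the coupling genes, Casq1, the calcium-binding protein of the sarcoplasmic reticulum, was at 3.497, 4.97, 6.94, 7.09 and 6.18 CPM at 10 µM and at 2.28, 1.74, 1.41, 2.73 and 2.32 CPM at 50 µM. It fell 2.74-fold with no overlap (log2 −1.46 ± 0.24 SE, edgeR adjusted p = 0.00709). Smpx, a small cytoskeletal muscle protein, fell 1.79-fold (adjusted p = 0.00951) and Cacnb1, a subunit of the muscle calcium channel, fell 1.297-fold (adjusted p = 0.0178, called in 6 of 10 such fits).

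Among the genes that set the muscle lineage, few passed the test. Of 24 myogenic regulators 1 fell, the growth factor gene Fgf6, 17 values were negative, and the median was −0.08. At an unadjusted p under 0.05 the list had 8 genes, 7 of them lower, and DESeq2 called 4, 3 of them lower. The shares over all genes tested were 10.3% and 2.04%. Myod1, a transcription factor of committed myoblasts, was at 85.9, 103, 102, 102 and 138 CPM at 10 µM and at 97.5, 104, 111, 129 and 137 CPM at 50 µM, and Myog, which acts as the cells differentiate, was at 185 ± 18.2 and 174 ± 14.6 CPM. The groups overlapped in both genes (edgeR adjusted p = 0.778 and 0.772). Myf6, a late myogenic factor with a mean of 16.6 counts per library, had a log2 difference of −1.98 ± 0.51 SE (edgeR adjusted p = 0.0958), and Des, the muscle intermediate filament desmin, one of −0.33 ± 0.07 SE (adjusted p = 0.0571). Neither passed the test. Single calls outside the muscle lists, not read as a group, were Itga7, the laminin-binding integrin of muscle, which fell 2.03-fold (adjusted p = 0.00742), and Atp1b4, which belongs by sequence to the sodium pump β subunits and in mammals encodes a muscle protein of the inner nuclear membrane, which fell 2.76-fold (adjusted p = 0.0117). Col22a1, a collagen of tissue junctions, fell 1.96-fold (adjusted p = 0.00249) and was the 1 call among 19 joint genes. Acta2, the smooth muscle actin that immature skeletal muscle also makes, fell 1.59-fold (adjusted p = 0.00742), and Tnmd, the tendon protein tenomodulin, 1.74-fold with overlapping groups (adjusted p = 0.0375, called in 3 of 10 fits without 1 library).

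Summed over the list, sarcomere genes took 0.493 to 0.861% of the counts in vehicle, 0.479 to 0.721% at 10 µM and 0.377 to 0.476% at 50 µM, so the 2 doses did not overlap. Against vehicle, Mylpf had a log2 difference of −0.29 ± 0.12 at 10 µM (edgeR adjusted p = 0.9999) and of −0.99 ± 0.11 at 50 µM (adjusted p = 0.0002403), and Tnnt3 of −0.19 ± 0.14 (adjusted p = 0.9999) and −1.07 ± 0.14 (adjusted p = 0.000708). The count of sarcomere genes called lower was 7 without replicate 3 of 10 µM, 8 without replicate 5 of 10 µM, 6 without replicate 2 and 7 without replicate 5 of 50 µM, and 21 without replicate 1 of 10 µM. With the log2 CPM of Ddx3y as a covariate, chosen after the data were seen, it was 8, and the median of the list was −0.46.

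**Figure D3:**
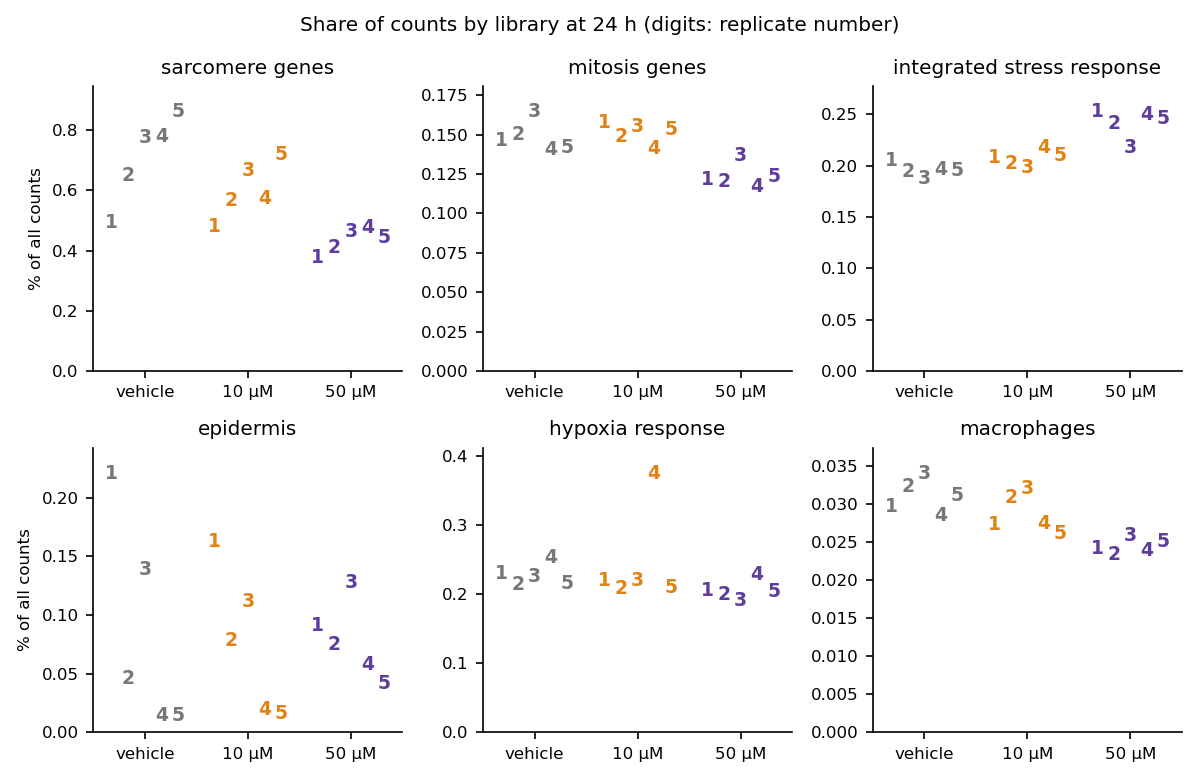
Each digit is the replicate number of 1 library, placed at the percentage of all counts that fell on the genes of a list, for vehicle, 10 µM and 50 µM at 24 h on axes from 0. Sarcomere and mitosis genes are lower in every library of 50 µM than of 10 µM, epidermis genes overlap widely, and replicate 4 of 10 µM stands above all others in the hypoxia list at 0.375%.

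The fibroblast growth factor (FGF) pathway held calls in both directions: of 22 genes tested, 1 rose and 2 fell, with a median of −0.09. The ligand gene Fgf6, made by developing muscle, was at 4.004, 4.64, 6.03, 4.59 and 5.94 CPM at 10 µM and at 2.001, 1.34, 1.98, 1.86 and 1.65 CPM at 50 µM. It was 2.85-fold lower with no overlap (log2 −1.51 ± 0.20 SE, edgeR adjusted p = 0.00249). The receptor gene Fgfr3, whose product restrains chondrocyte proliferation, was at 205, 204, 176, 184 and 191 CPM in vehicle, between 228 and 268 CPM at 10 µM (median 255) and at 388, 379, 362, 338 and 319 CPM at 50 µM. Its 3 groups did not overlap and followed the dose. It rose 1.43-fold between the doses (log2 0.52 ± 0.06 SE, edgeR adjusted p = 0.00164), while the log2 difference of 10 µM from vehicle, 0.38 ± 0.06, had an adjusted p of 0.108. Spry4, a feedback inhibitor of the pathway, fell 1.41-fold (adjusted p = 0.00543). All 3 were called in each of the 10 fits that left out a library.

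On the rising side, genes of the integrated stress response and of amino acid supply stood out. ATF4 and its partners bind the C/EBP-ATF response element, and ATF6, a factor of the unfolded protein response of the endoplasmic reticulum (ER), binds the ER stress element. The upstream bases of 4 called genes that hold these letters are shown because they are the called genes of these 2 programmes with such a match: 250 bases before the RefSeq start (GRCm38.p6), 5′ to 3′ on the strand of the gene, with the element in capitals.
Asns (chr6:7693210-7693459, minus strand): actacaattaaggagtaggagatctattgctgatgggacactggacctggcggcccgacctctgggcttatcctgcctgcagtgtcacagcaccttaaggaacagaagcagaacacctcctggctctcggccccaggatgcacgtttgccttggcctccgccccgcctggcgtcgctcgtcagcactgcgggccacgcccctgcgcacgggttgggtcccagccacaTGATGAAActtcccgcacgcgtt
Chac1 (chr2:119350992-119351241, plus strand): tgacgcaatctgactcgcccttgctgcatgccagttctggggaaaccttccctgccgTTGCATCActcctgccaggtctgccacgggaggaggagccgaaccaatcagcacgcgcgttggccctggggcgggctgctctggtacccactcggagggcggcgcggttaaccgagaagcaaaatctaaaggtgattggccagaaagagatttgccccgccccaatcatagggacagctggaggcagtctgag
Calr (chr8:84846932-84847181, minus strand): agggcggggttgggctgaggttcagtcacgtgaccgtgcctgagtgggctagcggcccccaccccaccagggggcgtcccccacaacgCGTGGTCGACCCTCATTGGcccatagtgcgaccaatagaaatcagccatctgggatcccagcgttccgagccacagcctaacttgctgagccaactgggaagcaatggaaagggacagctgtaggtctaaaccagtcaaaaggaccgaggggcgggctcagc
Derl3 (chr10:75893148-75893397, plus strand): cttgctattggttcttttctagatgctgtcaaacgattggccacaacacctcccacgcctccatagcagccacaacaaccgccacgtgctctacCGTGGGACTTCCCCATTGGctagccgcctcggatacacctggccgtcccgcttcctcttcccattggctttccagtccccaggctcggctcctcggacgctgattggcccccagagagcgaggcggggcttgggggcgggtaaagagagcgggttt

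The element of Asns lies 23 to 16 bases before the start and reads TGATGNAA on the strand of the gene, and that of Chac1 lies 193 to 186 bases before it on the opposite strand. Searched on both strands, TGATGNAA occurs in 3.45% of the 32851 mouse promoters of the table, in 10 of 25 tested genes of the stress response list that have a promoter there, and in 2 of the 4 called ones. The ER stress element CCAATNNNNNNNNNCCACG occurs in 0.113% of all promoters, in Calr at 162 to 144 and in Derl3 at 156 to 138 bases before the start, both on the opposite strand. The ER stress element occurs in 7 of 17 tested ER chaperone genes with a promoter, uncalled genes such as Hspa5 among them. It occurs in 3 of 18 in the list of ER-associated degradation. TGATGNAA occurs in 0 of 2 called amino acid transporters and 0 of 2 called 1-carbon genes that have a promoter. A match is a description of the letters, and binding was not measured. The bases after the start were found in a GENCODE transcript of the gene for Asns, Chac1 and Calr but not for Derl3, whose distances are less certain. Of the 126 called genes, 86 have a promoter in the table.

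Of 30 genes tested in the integrated stress response list, 6 rose and none fell, 27 had a positive log2 fold change, and the median was 0.28. Asns, the asparagine synthetase (chromosome 6, 7675169 to 7693254, minus strand), was at 73.8, 74.2, 75.2, 72.2 and 92.5 CPM at 10 µM and at 109.5, 105, 94.1, 120 and 119.8 CPM at 50 µM. Every library of 50 µM was higher than the highest of 10 µM, replicate 5, which stood apart from the other 4. The rise was 1.42-fold (log2 0.50 ± 0.08 SE, edgeR adjusted p = 0.00709). Chac1, an enzyme that degrades glutathione, was at 11.96, 12.3, 10.7, 12.7 and 12.98 CPM at 10 µM and at 25.9, 19.99, 13.9, 22.4 and 22.8 CPM at 50 µM, and Atf5, a transcription factor gene of the same response, was at 87.02, 65.7, 71.4, 67.5 and 50.1 CPM at 10 µM and at 141, 116, 107, 103 and 95.8 CPM at 50 µM. Neither overlapped between doses. They rose 1.73-fold (log2 0.79 ± 0.14 SE, adjusted p = 0.00951) and 1.65-fold (log2 0.72 ± 0.12 SE, adjusted p = 0.00951), and each was called in all 10 fits without 1 library.

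The other 3 calls of the list lay nearer the threshold. Ddit3, the stress factor CHOP, rose 1.33-fold (edgeR adjusted p = 0.0242), Eif4ebp1, an inhibitor of translation initiation, 1.34-fold (adjusted p = 0.0488), and Mars, the methionyl-tRNA synthetase, 1.22-fold (adjusted p = 0.0419). They were called in 3 of 10, 2 of 10 and 2 of 10 fits that left out a library. Ddit3 and Mars lie on opposite strands and overlap by 68 bases, and no strand setting of the counting is stated, so reads from the overlap cannot be told apart. Atf4 itself had a log2 difference of 0.31 ± 0.08 (adjusted p = 0.0908), Trib3, an inhibitor induced by it, of 0.77 ± 0.18 (adjusted p = 0.0657) and Sesn2, which senses leucine, of 0.29 ± 0.08 (adjusted p = 0.169), and none of them passed. The whole list took 0.198 to 0.218% of the counts at 10 µM and 0.218 to 0.253% at 50 µM. Its number of calls was 3 without replicate 2, 3 or 4 of 10 µM, 3 without replicate 2, 4 or 5 of 50 µM and 11 without replicate 3 of 50 µM.

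Amino acid transporters were the other rising group. Of 17 tested, 4 rose and none fell (median 0.14), all without overlap and in all 10 fits that left out a library. Slc7a5, the light chain of the large neutral amino acid exchanger, was at 96.6, 88.9, 90.3, 74.7 and 78.1 CPM at 10 µM and at 144, 126, 112, 152 and 151 CPM at 50 µM. Its heavy chain Slc3a2 was at 90.5, 89.2, 86.98, 92.9 and 90.97 CPM at 10 µM and at 129, 114, 105, 124 and 116 CPM at 50 µM. Slc7a5 rose 1.597-fold (log2 0.68 ± 0.09 SE, edgeR adjusted p = 0.00249) and Slc3a2 1.31-fold (log2 0.39 ± 0.06 SE, edgeR adjusted p = 0.00543). The RNA of each chain of the heterodimer was thus higher, and protein was not measured. The cationic amino acid transporters Slc7a1 and Slc7a3 rose 1.47-fold and 1.62-fold (adjusted p = 0.00528 and 0.00742). For Slc7a5 the log2 difference from vehicle was 0.01 ± 0.08 at 10 µM (adjusted p = 0.9999) and 0.67 ± 0.09 at 50 µM (adjusted p = 0.000842).

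In the list of amino acid and 1-carbon synthesis, 3 of 22 genes rose and none fell, with a median of 0.06. They were the mitochondrial folate enzymes Aldh1l2 (1.74-fold, edgeR adjusted p = 0.0101) and Mthfd2 (1.34-fold, adjusted p = 0.0453) and the proline synthesis enzyme Aldh18a1 (1.24-fold, adjusted p = 0.0369). Leaving out 1 library, Aldh1l2 was called in 10 of 10 fits, and Mthfd2 and Aldh18a1 in 2 of 10 each. The 2 groups overlapped in all 3 genes. Hmox1, the heme oxygenase that NRF2 controls, was at 37.6, 48.4, 39.3, 44.8 and 37.4 CPM at 10 µM and at 62.2, 58, 65.1, 60.1 and 66.8 CPM at 50 µM. It rose 1.51-fold with no overlap (log2 0.59 ± 0.08 SE, adjusted p = 0.00249) and was the only call among 22 NRF2 targets tested, whose median was 0.09.

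Genes of the ER showed small positive values with few calls. Of 22 ER chaperones 20 had a positive log2 fold change, the median was 0.10, and 1 rose: Calr, calreticulin, from 1136 ± 103 to 1429 ± 111 CPM (1.26-fold, edgeR adjusted p = 0.0375, overlapping groups). Hspa5, the chaperone BiP, had a log2 difference of 0.23 ± 0.06 (adjusted p = 0.0964). Of 21 genes of ER-associated degradation and the unfolded protein response 1 rose: Derl3, a derlin of that degradation pathway, was at 3.33, 5.35, 2.499, 6.601 and 3.19 CPM at 10 µM and at 8.84, 8.58, 9.42, 7.11 and 9.66 CPM at 50 µM. It was 2.08-fold higher without overlap, but at this low level the call (adjusted p = 0.0407) stood in 1 of 10 fits that left out a library. Calr was called in 2 of 10.

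**Figure D4:**
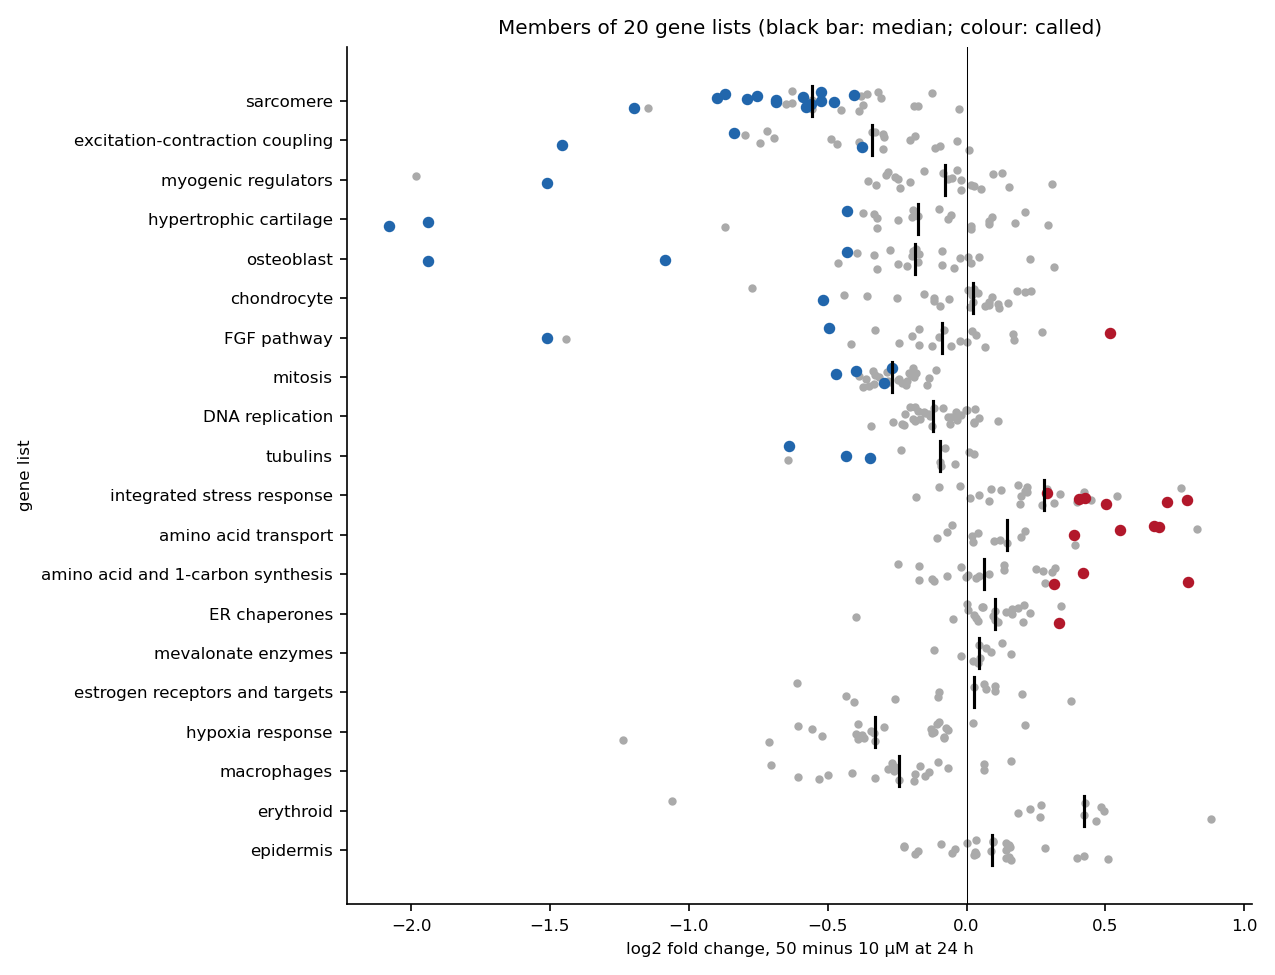
Each row is a gene list and each point the log2 fold change, 50 minus 10 µM at 24 h, of 1 tested member, with called genes coloured (red higher, blue lower) and a black bar at the median. Sarcomere genes and mitosis genes lie below 0 throughout, with medians of −0.56 and −0.27, most stress response genes lie above it with a median of 0.28, and no gene of the mevalonate, estrogen, hypoxia, macrophage, erythroid or epidermis lists is coloured.

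Genes of cell division had slightly lower values at 50 µM, and few passed the test. All 30 mitosis genes tested had a negative log2 fold change, with a median of −0.27, and 4 fell: Kif23, a kinesin of the midbody, Nusap1, a spindle protein, the cyclin gene Ccna2 and Top2a, the topoisomerase of dividing cells. Kif23 was at 38.1, 40.5, 38.7, 35.8 and 43.3 CPM at 10 µM and at 28.7, 29.97, 28.9, 27.9 and 26.03 CPM at 50 µM. The groups stood clearly apart (log2 −0.47 ± 0.07 SE, edgeR adjusted p = 0.00633). Nusap1, Ccna2 and Top2a fell 1.32-fold, 1.23-fold and 1.21-fold (adjusted p = 0.0178, 0.0211 and 0.0223). Leaving out 1 library, Kif23 was called in 10 of 10 fits, Nusap1 in 6 of 10, Ccna2 in 4 of 10 and Top2a in 5 of 10. Mki67, the proliferation marker, had a log2 difference of −0.29 ± 0.07 (adjusted p = 0.0637). The list took 0.141 to 0.158% of the counts at 10 µM and 0.117 to 0.137% at 50 µM. The call count was 1 without replicate 2, 3 or 5 of 10 µM or replicate 2 of 50 µM, 9 without replicate 3 of 50 µM, and 1 with Ddx3y as a covariate, where the median was −0.28.

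Of 32 DNA replication genes edgeR called none, with 6 at an unadjusted p under 0.05 (10.3% over all genes tested) and 1 call by DESeq2. The median was −0.12, and 26 values were negative. Cdkn1a, the inhibitor p21 that stops the cycle, had a log2 difference of −0.19 ± 0.07 (adjusted p = 0.275). Among 11 tubulin genes 3 β-tubulins fell. Tubb6 was at 96.6, 103, 108, 96.6 and 115 CPM at 10 µM and at 70.8, 64.2, 66.8, 69.3 and 61.1 CPM at 50 µM, 1.56-fold lower with no overlap (log2 −0.64 ± 0.07 SE, edgeR adjusted p = 0.000354). Tubb2b fell 1.35-fold and Tubb2a 1.27-fold (adjusted p = 0.00371 and 0.02904). Of the fits that left out a library, 10 of 10 called Tubb2b and 2 of 10 called Tubb2a. Tubulin paralogs are alike in sequence, so how the counting shared reads among them is uncertain. The small heat shock proteins Cryab and Hspb1, which also protect muscle filaments, fell 1.61-fold and 1.601-fold (adjusted p = 0.00633 and 0.0117), the 2 calls among 18 heat shock genes, whose median was −0.02.

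Transcripts of the mitochondrial genome split. The small ribosomal RNA mt-Rnr1 was at 435, 411, 414, 442 and 421 CPM in vehicle, at 410.4, 445, 456, 521 and 433 CPM at 10 µM and at 795, 704, 641, 923 and 841 CPM at 50 µM. The higher dose lay above both other groups in every library. It rose 1.73-fold between the doses (log2 0.79 ± 0.09 SE, edgeR adjusted p = 0.000905), the large ribosomal RNA mt-Rnr2 rose 1.39-fold (adjusted p = 0.0313, called in 3 of 10 fits that left out a library), and the proline tRNA gene mt-Tp rose 1.63-fold (adjusted p = 0.00164). In the list of 14 tested mitochondrially encoded genes these ribosomal RNAs were the 2 calls, and the median was −0.05. The libraries were made from RNA selected by its poly(A) tail, and recovery of ribosomal RNA by that step was not tested. Of 34 nuclear genes of the respiratory chain edgeR called none, with 1 at an unadjusted p under 0.05 and 0 DESeq2 calls. The unadjusted share over all genes tested was 10.3%.

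Few sterol and lipid genes passed the test at 24 h. Of the 10 mevalonate, 12 post-squalene and 13 sterol regulation genes edgeR and DESeq2 called none, with 0, 3 and 1 at an unadjusted p under 0.05. Abcg1, a cholesterol exporter, was at 16.02, 13.7, 18.01, 18.1 and 14.2 CPM at 10 µM and at 8.34, 7.89, 6.97, 11.5 and 9.71 CPM at 50 µM. It fell 1.803-fold without overlap (adjusted p = 0.00742) and was the 1 call among 11 efflux genes. Scd1, the fatty acid desaturase, rose 1.27-fold (edgeR adjusted p = 0.0287), the 1 call among 16 fatty acid synthesis genes. It was called in 5 of 10 fits that left out a library, against 10 of 10 for Abcg1. DESeq2 called 2 efflux genes, each lower, and 2 fatty acid synthesis genes, each higher. Of 23 genes of lipid uptake and oxidation edgeR called none. That list had 7 genes at an unadjusted p under 0.05, 6 of them lower, and DESeq2 called 3, all lower. The shares over all genes tested were 10.3% and 2.04%.

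The receptors usually discussed for BPA had few reads. Per length, in the authors' FPKM, Esr1 stood at 0.0603 ± 0.0512 at 10 µM and 0.0765 ± 0.0156 at 50 µM (mean ± SD, n = 5 each), against 43.7 ± 1.31 at 10 µM for the mesenchyme gene Prrx1. In CPM, Esr1, the estrogen receptor α gene, was at 0.483 to 2.09 CPM at 10 µM and 0.744 to 1.27 CPM at 50 µM, and Esr2, the β receptor gene, was at 0.508 to 1.44 and 0.188 to 1.64 CPM. Gper1, the membrane estrogen receptor gene, was at 2.499 to 5.35 and 3.25 to 4.92 CPM and Esrrg, the estrogen-related receptor γ gene, was at 2.02 to 3.83 and 2.001 to 4.87 CPM. The 2 doses overlapped in each gene, and no difference was detectable at these counts (edgeR adjusted p = 0.849, 0.921, 0.929 and 0.862). Of 13 genes of estrogen receptors and targets edgeR and DESeq2 called none, with 2 at an unadjusted p under 0.05. The unadjusted share over all genes tested was 10.3%. Among 7 genes of the aryl hydrocarbon receptor list none was called by either, with 1 at an unadjusted p under 0.05; Cyp1b1, one of its targets, was at 20.9 to 45.6 CPM at 10 µM and 47.9 to 64.9 CPM at 50 µM (adjusted p = 0.0664).

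Signalling and patterning lists held few or no calls. EdgeR called none of 34 BMP and TGF-β genes, 30 Wnt genes, 15 Hedgehog genes, 33 limb patterning genes, 26 p53 targets or 16 inflammation genes. At an unadjusted p under 0.05 these lists had 10, 9, 3, 1, 7 and 3 genes, and DESeq2 called 1, 1, 1, 0, 1 and 0. The shares over all genes tested were 10.3% and 2.04%, so the lists were not alike in the unadjusted counts. Single calls, chosen for naming after their values were seen, were Klf2 among 28 immediate early genes (1.41-fold lower, called in 5 of 10 fits that left out a library), the collagen gene Col24a1 among 20 collagens (log2 −0.68 ± 0.10 SE) and Aldh1a3, which makes retinoic acid, among 19 retinoic acid genes (log2 −0.61 ± 0.10 SE).

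Among the called genes outside the lists, the largest rise was that of Sstr2, a somatostatin receptor gene, at 2.93, 1.801, 1.25, 2.24 and 2.03 CPM at 10 µM and at 3.11, 6.102, 5.13, 4.81 and 6.09 CPM at 50 µM. It was 2.48-fold higher without overlap (log2 1.31 ± 0.25 SE, edgeR adjusted p = 0.0192), and 6 of 10 fits that left out a library called it. Esm1, the proteoglycan endocan, rose 1.57-fold, Cldn11, a tight junction claudin, 1.53-fold, Mttp, which loads lipoproteins, 1.52-fold, Spock3, a testican proteoglycan, 1.48-fold and Arrdc3, an arrestin domain protein, 1.47-fold. Of these, Cldn11 and Arrdc3 were called whichever library was left out (adjusted p with all 10 libraries 0.0117 and 0.00115), Esm1 in 7 of 10 such fits, and Mttp and Spock3 in 2 of 10 each. Tigd4 and Tceal7 were 2.24-fold and 2.11-fold lower (adjusted p = 0.0419 and 0.0114), and were called in 3 of 10 and 10 of 10 such fits. Larger falls outside the lists were fitted for C7, Pkhd1 and Adgrd1 (log2 −3.38, −2.44 and −1.96), but with mean counts of 11.8, 10.8 and 24.4 per library.

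Lists of other cell types in the limb were read beside these groups. Macrophage genes took 0.0262 to 0.0321% of the counts at 10 µM and 0.0234 to 0.0259% at 50 µM, and of 21 tested edgeR called none (6 at an unadjusted p under 0.05, 3 called by DESeq2; median −0.24). Their defining genes Csf1r, C1qa and Lyz2 were all detected, with log2 differences of −0.50 ± 0.12, −0.53 ± 0.12 and −0.07 ± 0.09. Endothelial genes had a median of −0.22 with none of 20 called by edgeR (7 at an unadjusted p under 0.05, 2 by DESeq2), and erythroid genes a median of 0.42 with none of 11 called by either test and 5 at an unadjusted p under 0.05. Epidermis genes, whose shares are given above, had a median of 0.09, with none of 26 called and 0 at an unadjusted p under 0.05 in edgeR, and 0 by DESeq2. For comparison, 10.3% of all genes tested had an unadjusted p under 0.05 and DESeq2 called 2.04%. The part of these cell types in the results above was not tested.

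Hypoxia and glycolysis genes gave an example of 1 library setting a list. Of 25 hypoxia genes 23 had a negative log2 fold change, with a median of −0.33, and 17 of 18 glycolysis genes, with a median of −0.25. EdgeR and DESeq2 called none, with 5 and 6 at an unadjusted p under 0.05 (10.3% over all genes tested). Replicate 4 of 10 µM held 0.375% of its counts in the hypoxia list and 0.513% in the glycolysis list. Without it the medians were −0.03 (12 values positive and 13 negative) and −0.05 (5 positive and 13 negative).

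The same difference between doses was measured at 3 h and 48 h in other libraries. For the 5 libraries titled 50 µM at 3 h a field of the labels gives 24 h of treatment, so the values at 3 h and the tests of 24 h against 3 h rest on the titles being right. EdgeR called 21 of 16984 genes at 3 h (0.124%), 14 higher (0.0824%) and 7 lower (0.0412%), and 556 of 16868 at 48 h (3.3%), 189 higher (1.12%) and 367 lower (2.18%). Col10a1 differed between doses by 0.14 ± 0.20 on the log2 scale at 3 h, by −2.08 ± 0.23 at 24 h and by −0.22 ± 0.30 at 48 h, and the adjusted p was 0.856 at 3 h and 0.808 at 48 h. The difference at 24 h was larger than that at 3 h by a direct test (interaction −2.23 ± 0.33 SE, edgeR adjusted p = 0.00542), while the test against 48 h did not pass after adjustment (interaction −1.87 ± 0.43 SE, adjusted p = 0.544). Col22a1 was the other gene whose difference changed from 3 h to 24 h (interaction −1.26 ± 0.18 SE, adjusted p = 0.00542). In all, 2 of 18137 genes passed for 24 h against 3 h (0.011%; 950 at an unadjusted p under 0.05, 5.24%) and 0 of 17927 for 24 h against 48 h (596 at an unadjusted p under 0.05, 3.32%; 0 also in the fit of all 45 libraries).

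At 48 h, single genes of the groups above were read, chosen from those described at 24 h. Tnnt3 differed by −1.07 ± 0.15 (edgeR adjusted p = 0.000964), Mylpf by −1.10 ± 0.16 (adjusted p = 0.00105) and Casq1 by −1.55 ± 0.21 (adjusted p = 0.000599). On the rising side Atf5 differed by 0.96 ± 0.10 (adjusted p = 0.000158), Chac1 by 1.02 ± 0.14 (adjusted p = 0.000695), Slc7a5 by 0.72 ± 0.13 (adjusted p = 0.00525) and Hmox1 by 0.73 ± 0.09 (adjusted p = 0.000296). Acta1 and Trib3, which missed the threshold at 24 h, passed it at 48 h (−0.86 ± 0.13, adjusted p = 0.00159, and 1.29 ± 0.16, adjusted p = 0.000304). In the cartilage, Ihh was higher at 50 than at 10 µM at 48 h (0.55 ± 0.07, edgeR adjusted p = 0.000304). Pth1r (0.22 ± 0.05, adjusted p = 0.0322), Col2a1 (0.25 ± 0.06, adjusted p = 0.0477) and Sox9 (0.20 ± 0.05, adjusted p = 0.0494) also passed there. Acan did not (0.26 ± 0.08, adjusted p = 0.0879). Of the bone genes, Ibsp had −0.83 ± 0.24 at 48 h (adjusted p = 0.07396) and Sp7 −0.24 ± 0.14 (adjusted p = 0.424), neither past the threshold.

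At 3 h few of these genes passed the test. The tubulins Tubb2b (−0.48 ± 0.08, edgeR adjusted p = 0.0486) and Tubb2a (−0.65 ± 0.12, adjusted p = 0.0486) and the ribosomal RNA mt-Rnr1 (0.85 ± 0.13, adjusted p = 0.0212) already did, in the directions seen at 24 h. Dhcr7, a late enzyme of cholesterol synthesis, was higher at 50 than at 10 µM at 3 h (0.64 ± 0.07, adjusted p = 0.00373) and had 0.21 ± 0.07 at 24 h, where it did not pass (adjusted p = 0.284). Scd1 passed at all 3 times (0.83 ± 0.12, 0.34 ± 0.07 and 0.29 ± 0.06). The differences of these genes between times did not pass an interaction test after adjustment.

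**Figure D5:**
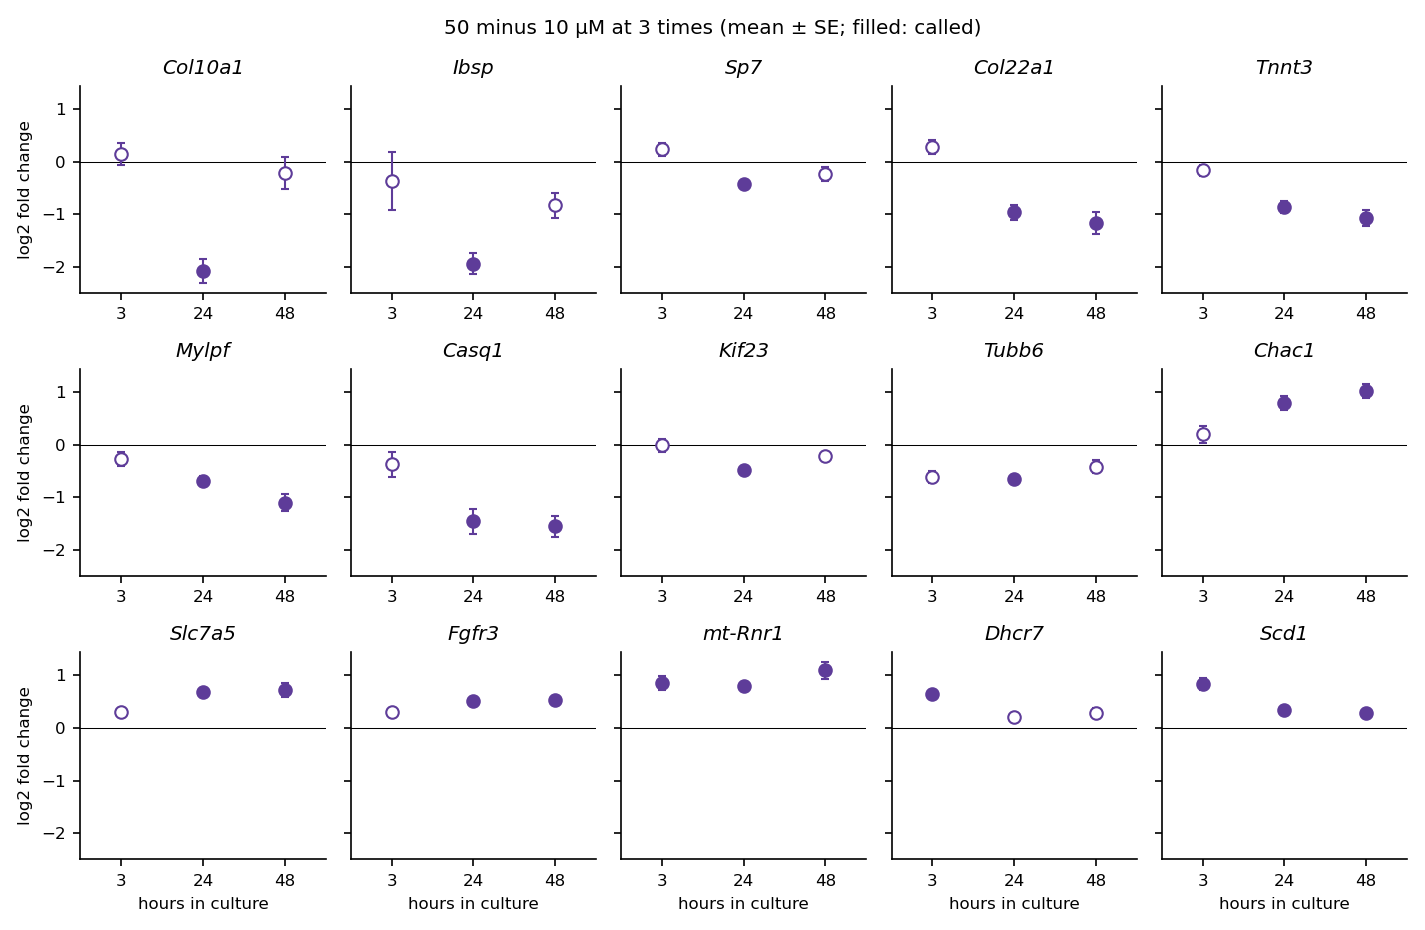
Points are log2 fold changes, 50 minus 10 µM, at 3, 24 and 48 h for 15 genes, with bars of ± 1 SE from edgeR and filled points where the gene was called at that time. Col10a1 is called at 24 h alone, the muscle genes Tnnt3, Mylpf and Casq1 at 24 and 48 h, mt-Rnr1 and Scd1 at all 3 times, and Dhcr7 at 3 h alone, with times as the titles give them.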

How the data were processed

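RNA of 45 libraries was measured, of which the 10 of 10 and 50 µM at 24 h were compared, with the 5 vehicle libraries and the libraries of both doses at 3 h and 48 h beside them. The authors deposited whole-number read counts per gene and FPKM values (a level per length and depth) in 1 table per dose and time. The submitters' processing notes name CASAVA 1.8, STAR 2.5, HTSeq 0.6.1, DESeq2 2 and the mm10 build; the sources used here give no strand setting for the counting, and per the labels' protocols RNA was selected with poly-T beads. Counts were used for every test, and the authors' FPKM in 1 comparison of levels between genes. In 442570 values that 2 tables repeat, 0 differed. Gene positions are those the authors deposited with the counts. Of 36257 gene IDs, 36219 matched GENCODE release 21 for mouse, and 24 symbols that a spreadsheet had turned into dates were restored by ID.

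Genes were kept by edgeR's filterByExpr (minimum count 10, minimum total 15), scaled by TMM and tested with edgeR 4.0.16's quasi-likelihood test on the 10 libraries compared, with Benjamini-Hochberg adjustment over all genes tested and a threshold of 0.05. Standard errors were taken from the fold change and the F statistic (log2 value over the root of F). Interaction contrasts used 20 libraries and the genes of all 6 dose tables. DESeq2 1.42.0 was an alternative, as were other scalings, filters and designs and leaving out each library. The test was checked on simulated counts. Depth was 17540925 to 26570582 counts per library of 24 h; counts of 0 to a few reads limit the low genes. Pairs of libraries within a group differed by more than sampling noise (chi-square per degree of freedom 6.86 to 28.4 over 20 pairs), so none looked like 1 library deposited 2 times; whether each is its own culture was not tested. R 4.3.3 and Python 3.11.15 were used.

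The groups are those of the titles. The treatment text of every library gives 3 h of culture, which disagrees with the titles of 24 h and 48 h, and a treatment length field gives 24 h for the libraries titled 50 µM at 3 h; the titles were followed. The comparison and the 47 gene lists were chosen with earlier results of these data known. Lists are described by counts and medians with no set test. Genes were named by rule: the 12 largest rises and 12 largest falls among called protein-coding genes with a mean count of at least 50 and no overlap, the 10 smallest p-values, up to 8 called members of each list with at least 2 calls, and a short list of marker and receptor genes, of which 2 are not reported here. Calr, Cytl1, Myf6, Des, Acta2, Tnmd, Klf2, Col24a1, Aldh1a3, C7, Pkhd1, Adgrd1 and, among the sarcomere genes, Myh3, Myh8, Myl1, Ldb3 and Tnnt1 fall outside it and were chosen after their values were seen. Promoter sequences are RefSeq's, from GRCm38.p6.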

Additional observations from a re-analysis of the deposited data

Results flagged for a closer look

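The level of single libraries set apart from the other 4 of their group, by a gap of over 0.71 of the range of the 5 (Dixon's 95% critical value), was found in 24 of 408 groups read, or 5.88%, where chance alone gives about 1 in 20. In vehicle, replicate 1 stood apart for Ifitm5 (8.91 CPM), Mmp13 (1.82 CPM), Atf5 (85.96 CPM), Trib3 (13.3 CPM), Hmgcs1 (226.9 CPM) and Atp1b4 (3.04 CPM). Replicate 2 of vehicle did so for Acan (531 CPM), Arrdc3 (148.1 CPM), mt-Rnr2 (596 CPM) and the tendon list (0.46% of counts), replicate 3 for Slc7a3 (6.62 CPM) and replicate 4 for Hbb-bs (102 CPM).

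At 10 µM, replicate 1 stood apart for Esr1 (2.09 CPM), replicate 2 for the tendon list (0.47% of counts), replicate 4 for Cytl1 (121 CPM), the glycolysis list (0.513% of counts) and the hypoxia list (0.375% of counts), and replicate 5 for Asns (92.5 CPM) and Mthfd2 (87.5 CPM). At 50 µM, replicate 1 did so for Pth1r (173.5 CPM), Tcap (5.34 CPM) and Cdkn1a (98.95 CPM), replicate 3 for Trp63 (35.1 CPM) and replicate 4 for Mylpf (186.9 CPM). The calls of Asns, Atf5, Arrdc3, Slc7a3, Mylpf and Cytl1 between the doses stood in all 10 fits that left out a library.

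The difference between doses was itself different at 24 h and 3 h for Col10a1 (interaction −2.23) and Col22a1 (interaction −1.26 on the log2 scale), by edgeR's test of the interaction over 20 libraries. Of these, the 5 titled 50 µM at 3 h carry 24 h in another label field.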

How the results depend on the processing

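For the single genes named, 1725 values under the alternatives kept direction and side of the threshold, 233 missed the threshold that all 10 libraries passed, 35 passed where those did not, and 3 changed sign, all in genes without a call. Pth1r (−0.06) was 0.012 without replicate 4 of 10 µM and ranged from −0.14, Mmp13 (−0.32) was 0.33 without replicate 1 of 10 µM and ranged from −0.63, and Ihh (0.08) was −0.00011 without replicate 1 of 50 µM and ranged to 0.18. The count of genes called between the doses was 126; it was 322 with DESeq2 and 62 to 172 when 1 library was left out, and 130, 141, 179, 140, 135 and 154 with RLE factors, upper-quartile factors, no filter, a filter of 1 CPM in 5 libraries, the 15 libraries of 24 h and all 45. An epidermis covariate gave 181 and the Ddx3y covariate, added after seeing the data, 85. DESeq2 shared 124 of the 126 genes and the Ddx3y fit 80. Sarcomere calls (14) became 22 with no filter, 8 with Ddx3y and 6 to 21 without 1 library. Stress response calls (6) became 12 with DESeq2, 10 with the epidermis covariate and 3 to 11 without 1 library. Amino acid transporter calls (4) stayed at 4 to 5. Mitosis calls (4) became 10 with DESeq2, 8 with no filter, 1 with Ddx3y and 1 to 9 without 1 library; the counts of these 4 lists were added to the alternatives after seeing the data. For 10 µM against vehicle (0), DESeq2 gave 16, no filter 3, all 45 libraries 4, the epidermis covariate 6 and leaving out 1 library 0 to 0; for 50 µM against vehicle (585), DESeq2 gave 933, all 45 libraries 888 and leaving out 1 library 345 to 661. The interaction with 3 h (2) was 4 with all 45 libraries and 2 to 3 without 1, and that with 48 h (0) was 0 to 1. The cause of these shifts was not tested.

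Replicate numbers are not stated to pair the libraries. The correlation of same-numbered libraries of both doses, after subtracting group means, was 0.259, 0.037, 0.224, 0.129 and 0.209. Replicate 2 of 50 µM was about as close to replicate 1 of 10 µM (0.0385) as to its own number. Every other same-numbered value was above all values between different numbers, the highest of which was 0.0938. The epidermis share of counts was lowest in replicate 5 of vehicle, 10 µM and 50 µM (0.0144, 0.0158 and 0.0414%). These values are a hint from the data that the numbers pair the libraries, but the design does not state it. With a replicate block the fit called 453 genes (all 126 among them), 23 sarcomere, 13 stress response and 12 mitosis genes, 95 genes for 10 µM and 1180 for 50 µM against vehicle.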
